A study of Mus musculus with 2 samples.

Results

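The immunoglobulin heavy variable genes (Ighv) encode the part of the antibody heavy chain that, together with the light chain, binds antigen. Their members were taken as every row of either count matrix whose symbol starts with Ighv. This gave 108 genes in the WT library and 96 in the library labelled Elf-1 KO, 119 in either of 28695 genes listed in all, and 85 in both. Usage was counted per cell. A plasma cell was a barcode with at least 20 unique molecular identifiers (UMIs, each counting 1 RNA molecule) of Jchain, the joining chain of secreted IgA and IgM, and its Ighv gene was the one with most UMIs, at least 3, without a tie. A B cell belonged to a cluster named from B cell markers, held under 20 Jchain UMIs, and its Ighv gene needed at least 2 UMIs. Cells for which this rule names a gene are called cells below.

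Colon cells of C57BL/6 mice aged 8 to 10 weeks were profiled by single-cell RNA-seq on GEXSCOPE microchips. The proximal and distal colon and the rectum were used. Mice of both groups had been given DSS (dextran sulfate sodium, which injures the colonic epithelium). One library came from WT mice and 1 from mice labelled Elf-1 KO or Elf-1-/-, which lack the ETS-family transcription factor Elf-1 by that label. Each library pooled the cells of 3 mice, and no file maps cells to mice. There was thus 1 library per group, no replicate check and no test. Cells of 1 mouse or descended from 1 B cell are not independent, and a difference between labels cannot be told apart from one between mice or descendants of 1 cell. Values are followed by 95% intervals in parentheses. Those of shares (Clopper-Pearson) and of UMIs (Poisson or binomial) are exact. Those of the effective number of genes, defined below, are approximate and rest on a normal approximation. None of them takes in more than the error of counting. For a count of 0, the share said to be allowed is the one that 3 cells would make, which is below the exact upper limit drawn in the plots. Values are given as WT against Elf-1 KO.

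The libraries held 32481613 and 39750319 UMIs in 8635 and 10012 barcodes, and 7718 and 9474 cells were kept, with medians of 2022.5 and 2636 UMIs. They shared 44 barcodes, of which 0 were plasma cells in both. Elf1 RNA, counted over the whole gene, stood at 72.6 against 60.9 CPM (the gene's UMIs scaled to the total UMIs of the class) in plasma cells and at 431 against 612 CPM in B cells. The sources used here do not give the deleted part, so this level checks nothing about the deletion, and each direction below follows the labels.

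Each developing B cell joins 1 V, 1 D and 1 J gene of the heavy chain locus into its rearranged gene. The promoter that comes with the chosen V gene then drives the rearranged gene, so that a mature B or plasma cell is known for transcripts of 1 functional V gene. In the gut most plasma cells secrete IgA, and their V regions often carry somatic mutations made in germinal centres. Mouse V genes fall into families by sequence, and the largest is Ighv1, the J558 family.

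On GRCm38 the listed genes spanned chromosome 12 on the minus strand, from Ighv2-1 (start 113574245) to Ighv1-85 (end 116000461), 144 to 2570 kb from the joining gene Ighj1. The GENCODE annotation holds 113 functional Ighv genes and 70 pseudogenes with such symbols, and the files listed 102 and 17 of them. The family is repetitive. The median identity of a listed gene to its nearest relative was 95.3%, and 25 of the 119 genes had a relative at 97% or more. The sources used here do not give how reads that match several genes were counted.

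Ighv9-3 (chr12:114140692-114141122) was the most used gene of plasma cells in both libraries, so that the last 300 of the 351 bases of its V transcript (GENCODE, counted from the start codon) are shown. Capitals mark the 15 bases here that differ from its nearest relative, Ighv9-2, at 94.3% identity.
Ighv9-3: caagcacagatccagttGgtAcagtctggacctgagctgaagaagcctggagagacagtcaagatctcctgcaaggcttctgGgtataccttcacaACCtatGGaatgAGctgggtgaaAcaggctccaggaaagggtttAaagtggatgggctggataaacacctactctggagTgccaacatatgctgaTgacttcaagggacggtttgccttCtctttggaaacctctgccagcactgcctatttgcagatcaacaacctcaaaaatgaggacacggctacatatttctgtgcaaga

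The Ighv9 family has 4 listed members, and they differ over a stretch that a short read can cover. Bases 147 to 206 of Ighv9-3 are set beside the same stretch of the other members, with capitals where each differs from Ighv9-3. Over all 351 bases Ighv9-3 differed from Ighv9-1 at 24, from Ighv9-2 at 20 and from Ighv9-4 at 32 bases. Of the 50-base stretches of Ighv9-3, 76.8% occur in no other annotated Ighv transcript.
Ighv9-3: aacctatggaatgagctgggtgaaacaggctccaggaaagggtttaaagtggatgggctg
Ighv9-1: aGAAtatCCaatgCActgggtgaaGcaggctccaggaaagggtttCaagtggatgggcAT
Ighv9-2: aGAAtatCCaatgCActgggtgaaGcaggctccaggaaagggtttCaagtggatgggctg
Ighv9-4: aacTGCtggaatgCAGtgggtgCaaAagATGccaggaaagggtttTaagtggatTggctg

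The last 60 bases before the joint to D are shown for Ighv9-3 and Ighv3-6, which were used alike, and for genes that were among those differing most between the libraries. Capitals mark the 9 bases that match TANTANTGN or TANTTNTGN with C or T at each N, on the coding strand, which code for Tyr, then Tyr or Phe, then the conserved Cys ahead of the third hypervariable loop. Of the 102 listed functional genes, 98 (96.1%) held the motif in this window.
Ighv9-3: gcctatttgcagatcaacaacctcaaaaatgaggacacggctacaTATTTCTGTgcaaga
Ighv3-6: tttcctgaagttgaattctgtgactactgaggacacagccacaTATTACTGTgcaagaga
Ighv2-2: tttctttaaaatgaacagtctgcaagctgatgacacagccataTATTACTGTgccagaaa
Ighv7-3: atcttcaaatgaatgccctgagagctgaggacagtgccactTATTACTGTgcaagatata
Ighv1-59: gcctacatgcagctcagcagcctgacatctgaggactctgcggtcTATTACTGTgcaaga
Ighv2-9-1: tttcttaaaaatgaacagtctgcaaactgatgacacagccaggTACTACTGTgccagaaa
Ighv5-16: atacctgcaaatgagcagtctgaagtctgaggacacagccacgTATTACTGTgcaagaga

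Plasma cells numbered 370 and 381, with medians of 14876 and 12658 UMIs. They held 71.6% and 78.3% of all Ighv UMIs of their library, 9223 of 12873 and 8799 of 11231. Ighv genes were called in 300 (81.1%, 76.7 to 84.9) and 298 cells (78.2%, 73.7 to 82.3). Of the rest, 20 and 29 cells had 0 Ighv UMIs, 49 and 53 had a top gene under 3 UMIs, and 1 in each library had a tie. In the called cells the top gene held a median of 97.1% and 98.7% of the cell's Ighv UMIs, and at least 90% in 221 (73.7%) and 226 cells (75.8%). A second Ighv gene with at least 3 UMIs was seen in 21 and 8 cells. In most called cells, then, 1 V gene held nearly all Ighv UMIs.

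The gate took in more than 1 kind of cell. Of the plasma cells, 299 and 304 lay in the cluster led by Jchain and immunoglobulin genes, 52 and 20 in an unnamed cluster with Pclaf and Rgs13 among its leading genes, and 19 and 57 elsewhere. An Ighv gene was called in 91.6% and 86.5% of the first and in 36.5% and 65% of the cells in the unnamed cluster. Of 16 plasma cell markers 13 and 10 were found in over 50% of the gated cells, and 0 were absent. Jchain is 1 of these markers and set the gate, so its presence was fixed in advance. Of 20 B cell markers 5 and 3 were found in over 50% of the gated cells. Around the Jchain minimum, 77 and 81 cells held 10 to 19 UMIs, of which 1 and 6 had a called gene, and 22 and 23 held 20 to 29, of which 1 and 4 did.

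Plasma cells used 54 Ighv genes in the WT library and 56 in the library labelled Elf-1 KO, 71 in either. The 39 genes used in both made up 72.2% of the WT list and 69.6% of the other, and held 80.7% and 75.8% of called cells. In all, 48 of the 119 genes were the top gene of 0 plasma cells. The 5 most used genes held 37.7% and 33.2% of called cells, and 8 and 11 genes sufficed for 50% of cells. The effective number of genes (inverse Simpson, the number of equally used genes that would give the same chance that a pair of cells share a gene) was 22.7 (18.7 to 29.02) against 25.9 (20.7 to 34.5), with intervals that overlap. This order turned when a top gene needed 10 UMIs, at 17.8 against 16.3, and when UMIs were counted in place of cells, at 10.9 against 9.78. Over the 119 genes, with the 48 at 0 included, the numbers of cells had a Spearman correlation of 0.48 and a Pearson correlation of 0.74. These values are a description across genes, which share a library and its depth. The weight on them of the shared zeros and of Ighv9-3, at 42 cells in each library, was not tested.

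Ighv9-3 led both libraries at the same share of called cells. It was the top gene of 42 of 300 called cells (14%, 10.3 to 18.4) against 42 of 298 (14.1%, 10.4 to 18.6). Ighv3-6 (chr12:114288152-114288582), ranked after Ighv1-26 in the WT library and next in the other, had 18 cells in each, 6% (3.59 to 9.32) against 6.04% (3.62 to 9.38). Ighv1-26 (chr12:114788372-114788805) was used in 22 cells (7.33%, 4.65 to 10.9) against 13 (4.36%, 2.34 to 7.34), with overlapping intervals. In the WT library the interval of Ighv9-3 overlapped that of the gene ranked next, Ighv1-26, and in the library labelled Elf-1 KO it lay above that of the next, Ighv3-6. Ighv1-72 and Ighv1-81 each had 8 cells (2.67%, 1.16 to 5.19) against 13 (4.36%, 2.34 to 7.34), again with overlap. For Ighv1-72 the gene assignment is uncertain, since it is 99.2% identical to Ighv1-62-3 and only 7.49% of its 50-base stretches are its own.

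Several other genes were used mostly by cells of the WT library. Apart from Ighv1-55, named as one of its most used genes, they are the extremes among the 119 genes, picked by the size of the difference, so that their gaps are a description. Ighv2-2 (chr12:113588267-113588702) was used by 14 WT cells (4.67%, 2.57 to 7.71) and by 0 of 298 in the library labelled Elf-1 KO, which allows up to 1.01%. Ighv7-3 (chr12:114153180-114153644) had 13 cells (4.33%, 2.33 to 7.30) against 1 (0.336%, 0.00850 to 1.86). Ighv1-39 had 15 (5%, 2.83 to 8.11) against 2 (0.671%, 0.0814 to 2.40). The intervals of these 3 genes did not overlap. Ighv1-59 had 10 cells (3.33%, 1.61 to 6.04) against 0, for which the exact upper limit is 1.23%. Its intervals did not overlap either. Ighv1-55 had 16 (5.33%, 3.08 to 8.52) against 6 (2.01%, 0.742 to 4.33), with overlap. Ighv2-2 and Ighv1-55 are 97.7% and 97.1% identical to Ighv2-4 and Ighv1-62, each the top gene of 0 plasma cells in either library.

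The opposite pattern was seen in other V genes. Ighv2-9-1 (chr12:113769850-113770302) was used by 0 of 300 WT cells, which allows up to 1%, and by 12 (4.03%, 2.10 to 6.93) in the library labelled Elf-1 KO. Ighv5-16 (chr12:113838526-113839010) had 0 against 10 cells (3.36%, 1.62 to 6.08). For both genes the intervals did not overlap. Ighv8-8 had 2 (0.667%, 0.0808 to 2.39) against 10 (3.36%, 1.62 to 6.08), and Ighv1-58 had 0 against 7 (2.35%, 0.9495 to 4.78). The intervals of the last 2 genes overlapped.

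**Figure D1:**
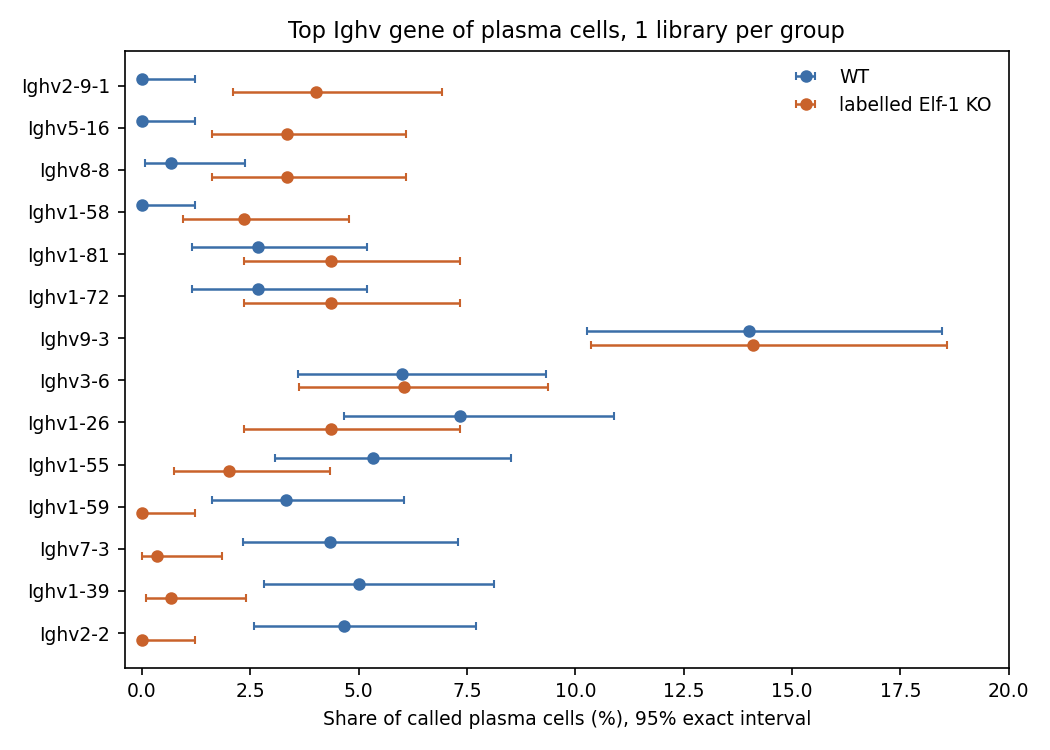
Share of called plasma cells (x axis, percent, with 95% exact intervals for counting error) whose top gene was each Ighv gene (y axis), in the WT library (blue, 300 cells) and the library labelled Elf-1 KO (orange, 298 cells), ordered by the difference. Ighv9-3 stands at 14% and 14.1%, while Ighv2-2 and Ighv1-59 had 0 cells in the library labelled Elf-1 KO and Ighv2-9-1, Ighv5-16 and Ighv1-58 had 0 in the WT library.

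Cells that share a V gene need not be of independent origin, and the light chain gives a second view of this. In the 42 cells with Ighv9-3 of each library, 12 and 13 different light chain V genes were top, the most frequent of them in 10 and 7 cells. Ighv3-6 cells had 8 and 5 light chain V genes among 17 cells each. Ighv1-26 cells had 7 among 20 and 8 among 13. Other genes ranged from 1 light chain V gene to several. All 12 Ighv2-9-1 cells of the library labelled Elf-1 KO had the same light chain V gene on top, as did 12 of the 14 Ighv2-2 cells and 13 of the 16 Ighv1-55 cells of the WT library. Ighv1-39 in the WT library had 3 light chain V genes, 1 of them in 10 of 15 cells, and Ighv7-3 had 5 among 13 cells, the most frequent in 6. Ighv1-72 and Ighv1-81, used in both libraries, each had 4 among 13 cells of the library labelled Elf-1 KO, the most frequent in 5 and 7. Ighv5-16 in the library labelled Elf-1 KO had 6 among 9 cells, the most frequent in 3. Over all called plasma cells, 46 and 53 light chain V genes were top. The most frequent of them was top in 76 of 297 and 55 of 291 cells. The numbers for each V gene depend on its number of cells, and no difference between V genes was tested. Whether cells with the same pair descend from 1 B cell was not tested, since the files hold no joint sequence. Lambda light chains were on top in 24 of 300 and 6 of 298 called cells, 3 and 0 of these among the Ighv9-3 cells.

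Levels per cell differed widely between V genes. In cells where it was top, Ighv9-3 had from 3 to 132 UMIs with a median of 49.5 in the WT library, and from 3 to 221 with a median of 42 in the other. Ighv3-6 had 5 to 172 (median 53) and 10 to 161 (median 50). Ighv1-26 had 3 to 29 (median 15) and 3 to 26 (median 10). Per kb of V transcript the median level was 141 and 120 UMIs for Ighv9-3, 151 and 143 for Ighv3-6 and 42.7 and 28.5 for Ighv1-26, so that the order was the same in both libraries. Ighv7-3 stood at 119 UMIs per kb in its 13 WT cells, and Ighv2-9-1 at 14.9 in its 12 cells of the library labelled Elf-1 KO. The share of 50-base stretches found in no other annotated Ighv transcript was 76.8% for Ighv9-3, 96.7% for Ighv3-6 and 51.0% for Ighv1-26. It was 93.3% for Ighv7-3 and 82.8% for Ighv2-9-1. The part of reads that match several genes in these levels was not tested. With at least 10 UMIs required, the share of Ighv9-3 in the library labelled Elf-1 KO was 20.5% and that of Ighv2-9-1 2.05%. In that library the median was 5.5 UMIs for Ighv2-9-1 and 5 for Ighv8-8, near the minimum of 3. Plasma cells held 9223 and 8799 Ighv UMIs beside 1300764 and 1248311 of Igha. V genes with few UMIs per cell may more often go uncalled, so that shares of called cells need not equal true usage. This was not tested.

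**Figure D2:**
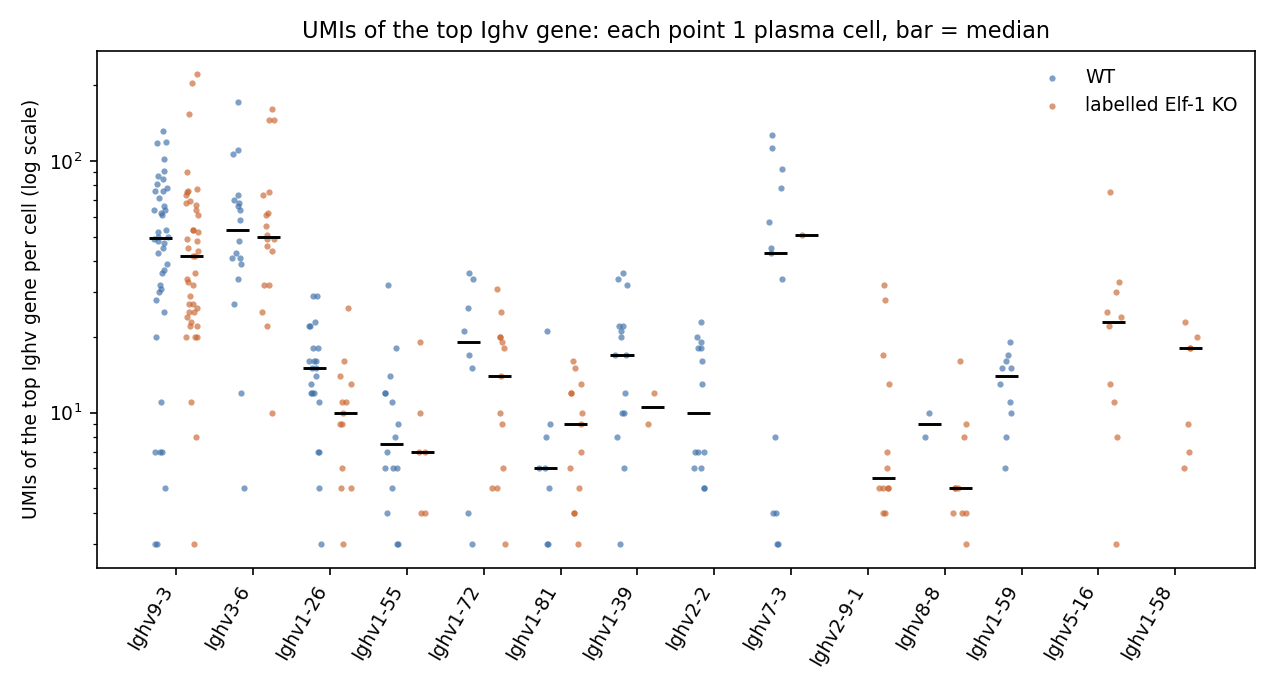
UMIs of the top Ighv gene (y axis, log scale) in each plasma cell where that gene was top (points, 1 cell each), for 14 genes (x axis), in the WT library (blue) and the library labelled Elf-1 KO (orange), with black bars at the medians. Ighv9-3 and Ighv3-6 have medians of 42 to 53 UMIs, while Ighv1-26 has medians of 15 and 10.

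Families followed the same picture. Ighv1, with 59 listed genes, was used by 161 WT plasma cells (53.7%, 47.8 to 59.4) and 145 in the library labelled Elf-1 KO (48.7%, 42.9 to 54.5). Ighv9 had 14.7% (10.9 to 19.2) against 15.4% (11.5 to 20.05), with Ighv9-3 in 42 of 44 and 42 of 46 of these cells. Ighv3 stood at 7.33% (4.65 to 10.9) against 8.05% (5.23 to 11.7), Ighv5 at 6.67% (4.12 to 10.1) against 10.7% (7.46 to 14.8) and Ighv2 at 5.67% (3.34 to 8.92) against 4.70% (2.59 to 7.76). The intervals of these 5 families overlapped. Ighv7 was at 4.33% (2.33 to 7.30) against 0.336% (0.00850 to 1.86), all of the WT cells being Ighv7-3 cells, and these intervals did not overlap. Ighv8 had 2.33% (0.943 to 4.75) against 5.70% (3.36 to 8.98), with overlap. Ighv12, Ighv13 and Ighv15, with 1 listed gene each, were the top gene of 0 plasma cells in both libraries. So were all 17 listed pseudogenes. A count of 0 allows a share of up to 1% and 1.01%. By UMIs in place of cells the share of Ighv1 was 32.9% against 29.1%.

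**Figure D3:**
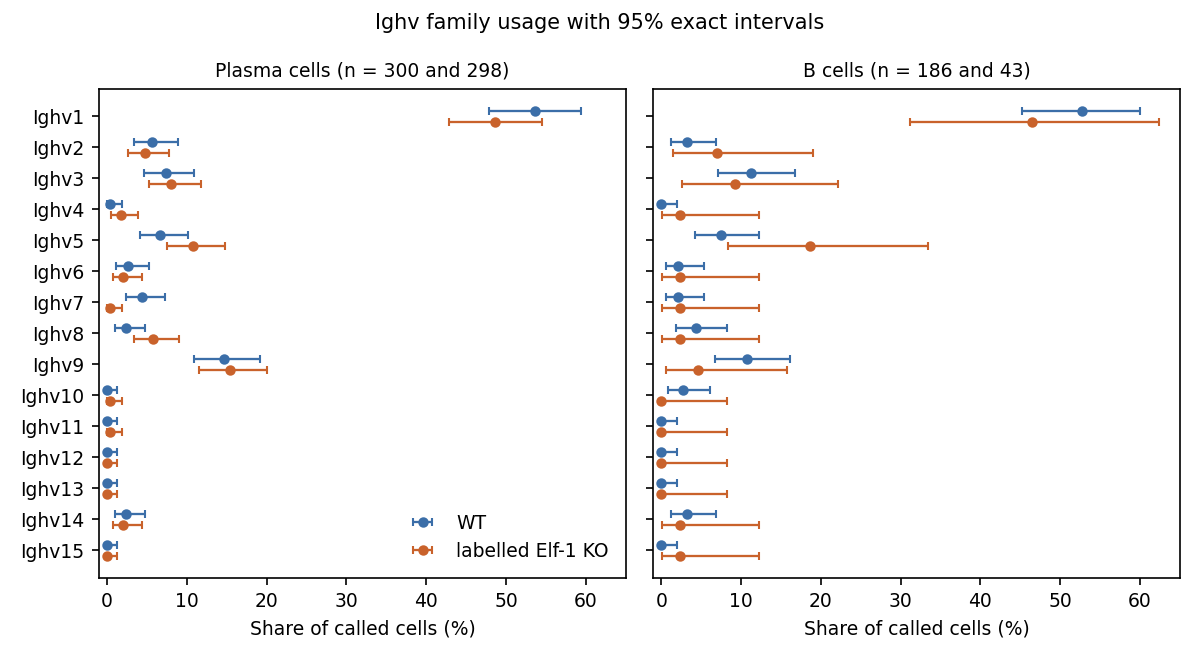
Share of called cells (x axis, percent, with 95% exact intervals) by Ighv family (y axis) in plasma cells (left, 300 and 298 cells) and B cells (right, 186 and 43 cells), for the WT library (blue) and the library labelled Elf-1 KO (orange). Ighv1 holds 46.5% to 53.7% in all 4, and the Ighv7 share of plasma cells is 4.33% in WT against 0.336%.

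Position in the locus was compared because the V genes near D and those far from it are known to differ in how they reach the recombination centre. The locus was split at its midpoint, 1357 kb from Ighj1, with 69 listed genes on the near side and 50 on the far side. The near side was used by 159 plasma cells (53.0%, 47.2 to 58.8) against 168 (56.4%, 50.5 to 62.1), with overlap. The median distance of the top gene from Ighj1 was 1286 against 1182 kb. In B cells the near side held 60.2% (52.8 to 67.3) against 69.8% (53.9 to 82.8).

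**Figure D4:**
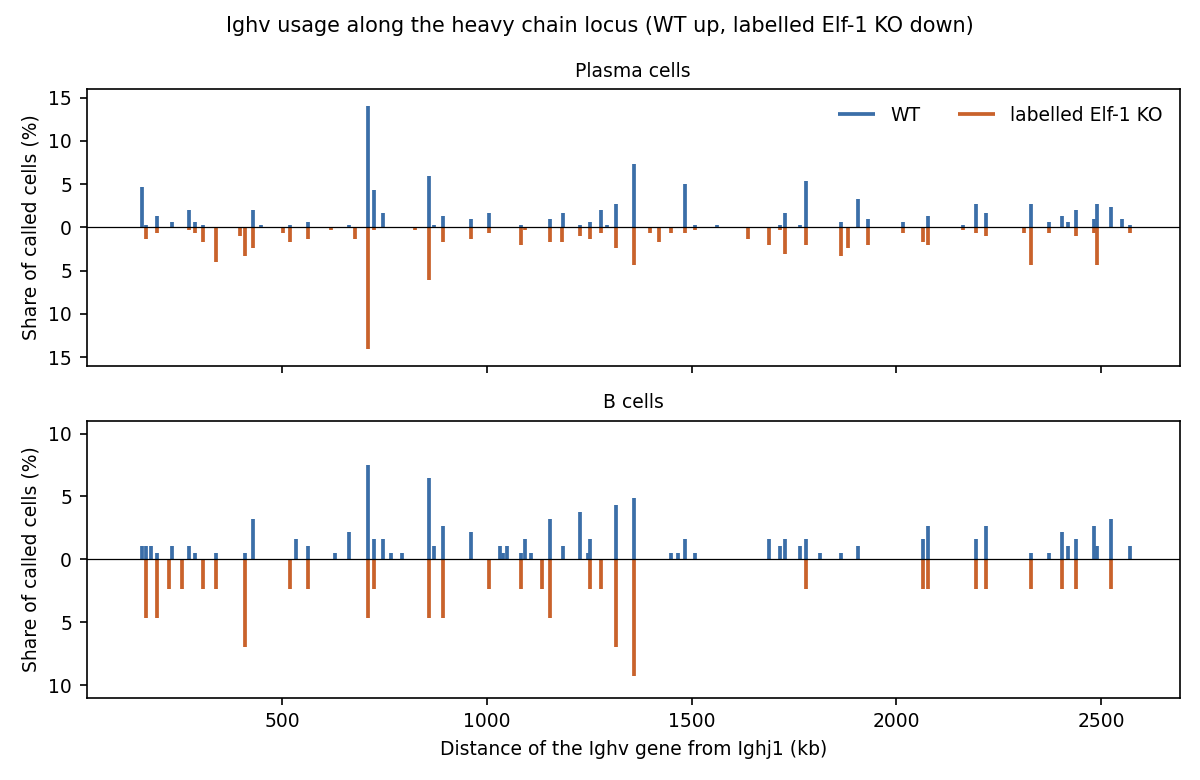
Share of called cells (y axis, percent, WT upward in blue and labelled Elf-1 KO downward in orange) for each Ighv gene, by its distance from Ighj1 (x axis, kb), in plasma cells (top) and B cells (bottom). The tallest lines in the plasma cells are Ighv9-3, 711 kb from Ighj1, at 14% and 14.1%.

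The constant gene tells which antibody class a plasma cell makes. Igha, for IgA, was top in 315 of 370 cells (85.1%, 81.1 to 88.6) against 356 of 381 (93.4%, 90.5 to 95.7). The IgG genes were top in 53 (14.3%, 10.9 to 18.3) against 21 (5.51%, 3.44 to 8.30), and Ighg1 made up most of this gap with 28 against 2 cells. Ighm, for IgM, was top in 2 against 4 cells. Among the IgA cells Ighv9-3 was used by 39 of 263 called cells (14.8%, 10.8 to 19.7) against 41 of 277 (14.8%, 10.8 to 19.5), and Ighv3-6 by 17 in each. The differing genes were in IgA cells as well. All 14 Ighv2-2, 13 Ighv7-3 and 10 Ighv1-59 cells of the WT library and all 12 Ighv2-9-1, 10 Ighv5-16 and 10 Ighv8-8 cells of the other had Igha on top. Of the 15 Ighv1-39 cells of the WT library, 12 had Igha and 3 an IgG gene on top. The effective number of genes within IgA was 20.9 (17.01 to 27.2) against 24.6 (19.4 to 33.5). An Ighv gene was called in 67.9% of IgG cells against 90.5%.

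Summed over plasma cells, 46 of the 119 Ighv genes were listed in both files with at least 50 UMIs over both libraries. A gene counted as higher or lower where its CPM differed at least 2-fold with an interval that excluded 1. Of these genes 17 were higher and 15 lower in the library labelled Elf-1 KO, while among all 6654 genes measured 4.07% were higher and 11.1% lower. With TMM scaling, a scaling to the bulk of genes, the counts were 18 and 13 beside 5.88% and 6.70% of all genes, and the median log2 ratio of all genes moved from -0.28 to -0.07. Genes that reached 50 UMIs through 1 library had to differ, so that these counts say nothing more of the genes as a group. Ighv9-3 had 2254 against 2251 UMIs, 401 against 479 CPM, a log2 ratio of 0.26 (0.17 to 0.34). Ighv3-6 had 1153 against 1159 UMIs, 205 against 247 CPM, a log2 ratio of 0.27 (0.15 to 0.38). Neither was past 2-fold. Ighv7-3 had 624 against 53 UMIs (log2 ratio -3.30, from -3.73 to -2.89), and 51 of the 53 lay in 1 cell. Ighv2-2 had 213 against 4 (log2 ratio -5.48, from -7.37 to -4.10). Ighv5-16 had 2 against 257 (log2 ratio 7.26, from 5.40 to 10.3). Ighv1-58 had 0 against 106, a log2 ratio of 5.40 when 0 is set at 3 UMIs, with a lower limit of 5.08 for counting error.

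Single cells weighed heavily in such sums. Among the 17 higher genes a median of 33.7% of the UMIs came from 1 cell, and among the 15 lower ones 33.3%. In 4 and 5 of them 1 cell gave over 50%. Ighv4-1 had 48 against 836 UMIs, of which 387 were in 1 cell, and it was the top gene of 1 against 5 cells. Ighv5-17 had 396 against 102 UMIs, of which 291 lay in 1 WT cell, and its cell numbers were 6 against 7. These 2 genes were chosen after their values were seen.

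B cells carried far less Ighv RNA. There were 2232 and 965 B cells, with medians of 1355.5 and 1150 UMIs, and they held 1190 and 306 Ighv UMIs. At least 1 Ighv UMI was found in 36.0% and 23.8% of them, and a gene was called in 186 (8.33%, 7.22 to 9.56) against 43 (4.46%, 3.24 to 5.96). The top gene had a median of 2 UMIs in both and at most 6 and 5. B cell calls therefore rest on few molecules and leave out over 90% of the B cells.

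Free RNA from plasma cells can give Ighv UMIs in cells that do not make them, so that the same rule was run in other cells. It called a gene in 4 of 900 T and innate lymphoid cells (0.444%, 0.121 to 1.13) against 2 of 949 (0.211%, 0.0255 to 0.759), at medians of 1746 and 1480 UMIs. At least 1 Ighv UMI was found in 11.1% and 9.17% of these cells. In smooth muscle cells and pericytes the share was 0.752% against 0.912%, and in neutrophils 0.606% against 0.0796%. Ighv9-3 made up 23.3% and 23.1% of the Ighv UMIs in these cells, close to its 24.4% and 25.6% of those in plasma cells. The source of the Ighv UMIs in cells outside the B lineage was not tested. With each cell thinned to 1000 UMIs, leaving out 437 and 306 shallower B cells, a gene was called in 95 of 1795 B cells (5.29%, 4.30 to 6.43) against 14 of 659 (2.12%, 1.166 to 3.54). In T cells it was 0 of 792 and 0 of 777, which allows up to 0.379% and 0.386%. The B cell share stood above the T cell share in both libraries and was higher in WT at either depth.

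**Figure D5:**
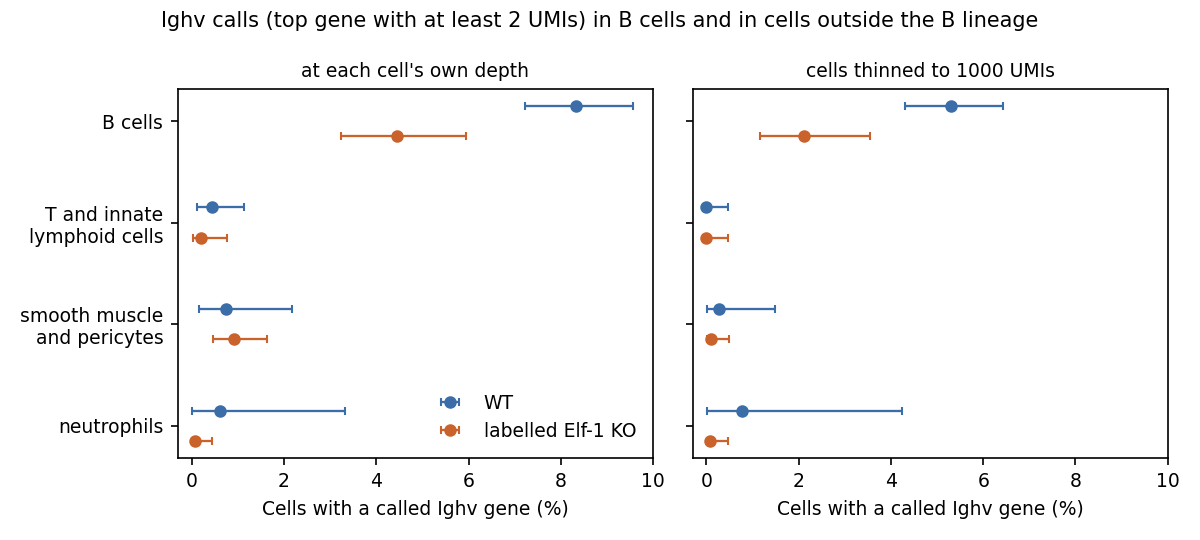
Share of cells with a called Ighv gene (x axis, percent, with 95% exact intervals) in 4 classes (y axis), at each cell's own depth (left) and after thinning to 1000 UMIs (right), for the WT library (blue) and the library labelled Elf-1 KO (orange). B cells stand at 8.33% and 4.46% on the left and at 5.29% and 2.12% on the right, and each other class lies below 1%.

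The B cells of the libraries were not the same mix. Of the WT B cells 85.6% lay in cluster 2, where Fcer2a is a leading gene, and 14.4% in cluster 1, where Ccr7 is, against 30.5% and 69.5% in the library labelled Elf-1 KO. In cluster 2 a gene was called in 8.84% (7.61 to 10.2) against 5.10% (2.88 to 8.28) of B cells. In cluster 1 it was 5.30% (3.11 to 8.34) against 4.17% (2.79 to 5.97). The intervals overlapped in both clusters. The 20 B cell markers summed to 13839 against 7936 CPM in B cells, and 10 fibroblast markers to 340 against 1213 CPM, with 1 and 0 of them at 0. Dcn alone gave 118 against 773 CPM of the fibroblast sums. The part of the cluster mix and of these marker levels in the call rate was not tested. The cluster with Pclaf and Rgs13 among its leading genes stayed unnamed and out of the B cells, with 302 cells (3.91% of kept cells) against 41 (0.433%).

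Called B cells used 61 and 30 Ighv genes, with 23 in both, 37.7% of the WT list and 76.7% of the other. At an equal number of 43 cells, 29.2 genes would be expected in the WT library against the 30 seen. The effective number was 43.3 (34.5 to 58.2) against 50.2 (29.7 to 161), with approximate intervals, the latter from only 43 cells. Ighv9-3 was called in 14 B cells (7.53%, 4.18 to 12.3) against 2 (4.65%, 0.568 to 15.8), Ighv3-6 in 12 (6.45%, 3.38 to 10.998) against 2, and Ighv1-26 in 9 (4.84%, 2.24 to 8.99) against 4 (9.30%, 2.59 to 22.1). In the cells outside the B lineage these 3 genes held 23.3%, 12.1% and 6.31% of Ighv UMIs against 23.1%, 11.2% and 1.60%. Igha was found in 90.6% and 85.9% of B cells. It was the top constant gene of 32 of 186 and 9 of 43 called B cells. The part of free RNA in these calls was not tested. Ighv1-22 had 8 against 3 cells and Ighv1-15 had 7 against 0 of 43, which allows up to 6.98%. Ighv1 as a family stood at 52.7% (45.3 to 60.04) against 46.5% (31.2 to 62.3), an order that turned to 53.3% against 53.7% when 1 UMI sufficed. Ighv5 was at 7.53% (4.18 to 12.3) against 18.6% (8.39 to 33.4). At 43 cells none of the named genes or families had intervals that lay apart between the libraries. Of Ighv genes 3 had at least 50 UMIs in B cells, and 0 of them were called higher or lower, where 4.75% of 7202 genes were higher and 4.64% lower.

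The genes with the farthest plasma cell shares were called in few B cells. Of 186 and 43 called B cells, Ighv2-2 had 2 against 0, Ighv7-3 had 3 against 1 and Ighv2-9-1 had 1 and 1. Ighv5-16 had 1 (0.538%, 0.0136 to 2.96) against 3 (6.98%, 1.46 to 19.1), the latter above its 3.36% of plasma cells with overlapping intervals. Ighv9-3 had a share of plasma cells above its share of B cells in both libraries, by 6.47 and 9.44 percentage points, with intervals that overlap in both and with the different minimums of 3 and 2 UMIs. Pseudogenes were the top gene of 2 of 186 WT B cells and of 0 of 43.

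Genes that act on the heavy chain locus were read from 3 lists. Of 12 genes of V(D)J recombination, 3 had at least 50 UMIs in plasma cells, and 1 was lower, the chromatin protein Hmgb2, with 364 against 113 CPM (log2 ratio -1.69). Of 12 regulators of heavy chain transcription 10 were measured, and 1 was lower, the B cell factor Pax5, with 61 against 1 UMI (log2 ratio -5.67, from -11 to -3.14). The unnamed cluster with Pclaf and Rgs13 gave 52 WT cells and 20 cells of the other library to the gate, and its part in these values was not tested. Of 8 constant genes 7 were measured. Ighm (log2 ratio 4.33) and Ighg3 (1.81) were higher, and Ighg1 (-2.42) and Ighe (-1.89) lower. Ighm was the top constant gene of only 2 against 4 plasma cells and Ighg3 of 0 against 1. Ighg1 was top in 28 against 2 and Ighe in 0 of either library. The weight of single cells in these sums was not tested. The median log2 ratio of the measured members of the 3 lists in this order was -0.71, -0.49 and 0.20, beside -0.28 for all genes. Of all genes 4.07% were higher and 11.1% lower, and with so few measured members these counts are given as a description. In B cells 7, 11 and 8 members were measured, and 3 were called, with Ighe, Ighg1 and Ighg3 lower, beside 4.75% of all genes higher and 4.64% lower.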

How the data were processed

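Single-cell RNA-seq was read from 2 libraries, WT and Elf-1 KO. The authors deposited raw counts of UMIs for each gene in each barcode, without normalization. The submitters' processing notes name cutadapt 1.17, STAR 2.6.1a, featureCounts 2.0.1 and GRCm38, with no role or order stated.

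Barcodes needed at least 500 UMIs, 200 genes and at most 25% mitochondrial UMIs. Doublets were called by scrublet in scanpy 1.11.5. In the WT library the caller marked 0.0246%, so the 5% with the highest scores (406 barcodes) were removed, and in the other 260. The kept cells were clustered together (2000 variable genes without immunoglobulin genes, 30 components, 15 neighbours, Leiden resolution 1.0 in igraph 0.11.9). Clusters were named from markers with at least 3 among the 50 leading genes.

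The design fixed shares of cells, with intervals from scipy 1.17.1, and no test. Named genes were the 6 most used in each library and cell class and the 4 highest and 4 lowest differences. TMM came from edgeR 4.0.16, and sequences from GENCODE transcripts on GRCm38, compared with biopython 1.88. Python 3.11.15, numpy 2.4.6 and pandas 2.3.3 were used. The scripts were tested on simulated data. Members and lists were chosen with earlier results of these data known. The result of 1 further gene list is not reported here.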

Additional observations from a re-analysis of the deposited data

How the results depend on the processing

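No paired analysis was possible because each group is 1 library. Alternatives were other Jchain minimums, other minimums of the top gene, UMIs in place of cells, doublets kept, all barcodes, near-identical genes merged (at 97% of the GENCODE transcript, since no genome sequence was used), genes of both files, a B cell marker gate, another clustering resolution, thinning and other scalings. The alternative with only the plasma cell cluster was chosen after seeing the data. Of the values for diversity, Ighv1 share and ratio counts, 72 moved by less than their counting interval or under 1.5 times, and 10 moved more. With a top gene of at least 10 UMIs the effective number in plasma cells was 17.8 (WT) and 16.3 (Elf-1 KO), and the Ighv1 share of the latter was 41.0%. By UMIs the effective numbers were 10.9 and 9.78 and the Ighv1 shares 32.9% and 29.1%. In B cells TMM scaling gave 1 of 3 Ighv genes lower, beside 6.46% of all genes. A minimum of 10 UMIs per gene gave 1 higher and 4 lower of 44, beside 6.57% and 4.82% of all genes. Of the values of single genes 455 stayed within the interval and 20 moved. The effective number in B cells also turned by UMIs, at 41.4 against 31.6. With 5 UMIs required, 4 and 1 B cells were called, and thinning left 14 called B cells in the library labelled Elf-1 KO, so these settings gave no value there. Depth limits the B cell calls, with a median of 0 Ighv UMIs per B cell in both libraries.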
